A study of Mus musculus with 8 samples.

Results

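The miR-106b and miR-106a clusters are 2 groups of neighbouring miRNA genes that are copies of one ancestral cluster, and their levels were compared in mouse kidney after tacrolimus (TAC) and after physiological serum (CTL). A list of 6 mature miRNAs stood for them, picked by name but with earlier results of these data known. From the miR-106b cluster these were mmu-miR-106b-5p, mmu-miR-93-5p and mmu-miR-25-3p. From the miR-106a cluster they were mmu-miR-106a-5p, mmu-miR-20b-5p and mmu-miR-363-3p. The species mark mmu is left off from here on. Of the 6, 5 had probes under their own name among the 1023 mouse miRNA names of the array, and 4 were detected on all 8 arrays and entered the test across 194 miRNAs. miR-106a-5p had no probe under its name, and miR-363-3p was not well above background on any array.

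TAC animals were CD-1 mice that received 1 mg of tacrolimus per kg each day over 28 days (4 arrays), and CTL animals were CD-1 mice given physiological serum (4 arrays). CD-1 is an outbred stock, and the labels give neither the age nor the sex of the mice. Total RNA of whole kidney was labelled with Cy3 and hybridised to one-colour Agilent arrays for mouse miRNAs, with 0.1 µg of RNA and an RNA integrity number of 9 for every sample. Nothing in the labels states that the replicates of a group came from different mice, and the p-values given here reflect the spread between samples that may be technical repeats. Tacrolimus is a calcineurin inhibitor used against transplant rejection, and injury of the kidney is a known side effect.

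A miRNA pairs with messenger RNAs mainly through its seed, bases 2 to 8 counted from its 5′ end, and lowers their stability and translation, so miRNAs with one seed share many targets. The miR-17 seed family, to which miR-106b, miR-93, miR-106a and miR-20b belong, is known for holding down cell-cycle inhibitors such as Cdkn1a and for supporting proliferation. The miR-25 and miR-92 seed family, to which miR-25 and miR-363 belong, is known for targets that include Bcl2l11, a gene that promotes cell death. In the mouse the miR-106b cluster is made from within the gene Mcm7, a component of the replicative helicase, and the third paralogous cluster is that of miR-17 and miR-92a.

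The 6 mature sequences are shown because the 2 seeds set the pairs that were compared across the clusters, with miR-17-5p and miR-20a-5p of the third cluster beside them because they bear on what the probes can tell apart. Capitals mark the seed.
miR-106b-5p: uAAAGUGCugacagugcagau
miR-93-5p: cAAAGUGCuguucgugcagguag
miR-25-3p: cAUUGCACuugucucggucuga
miR-106a-5p: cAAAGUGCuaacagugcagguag
miR-20b-5p: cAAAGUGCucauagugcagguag
miR-363-3p: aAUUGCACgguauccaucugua
miR-17-5p: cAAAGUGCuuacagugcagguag
miR-20a-5p: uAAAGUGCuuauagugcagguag
All sequences are from RefSeq (GRCm38.p6), where 6 of 6 members were matched. In that build the miR-106b cluster lay on the minus strand of chromosome 5, with miR-106b-5p at chr5:138165787-138165807, miR-93-5p at chr5:138165574-138165596 and miR-25-3p at chr5:138165332-138165353. These 3 spanned 476 bp, and all 3 genes lay within Mcm7. The miR-106a cluster lay on the minus strand of chromosome X, with miR-106a-5p at chrX:52742541-52742563, miR-20b-5p at chrX:52742159-52742181 and miR-363-3p at chrX:52741697-52741718. These 3 spanned 867 bp and lay within no annotated gene. The genes of miR-18b, of a second copy of miR-19b and of a second copy of miR-92a lay between them.

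Across the clusters, the pairs with the miR-17 seed were close copies and the pair with the miR-25 seed was not. miR-93-5p and miR-20b-5p shared 20 of 23 bases, miR-106b-5p and miR-106a-5p shared 18 of 21 compared bases, and miR-25-3p and miR-363-3p shared 9 of 22, among them the seed. The member nearest in sequence to a miRNA of the miR-17 cluster was miR-106a-5p, which shared 22 of 23 bases with miR-17-5p. miR-17-5p differed from miR-106a-5p by U10A, and miR-20a-5p differed from miR-20b-5p by U1C and U10C. Within the miR-106a cluster, miR-20b-5p differed from miR-106a-5p by C10A and U12C (positions from the 5′ end, the first-named miRNA's base given first).

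The probes read these sequences from their 3′ ends. The brightest probe of each of the 4 measured members follows, with that of miR-17-5p, since it shows why miR-106a-5p could not be read. Capitals mark bases that mismatch the related mature sequence with the fewest mismatches, where the whole probe was placed inside that sequence without gaps.
miR-106b-5p probe: aTctgcactgtCagcac
miR-93-5p probe: ctacctgcacGaACag
miR-25-3p probe: TCagAccgAgacAagtgc
miR-20b-5p probe: ctacctgcactatGagcact
miR-17-5p probe: ctacctgcactgt
The probe named for miR-17-5p paired fully with both miR-17-5p and miR-106a-5p, so its signal cannot be told apart between them, and the same held for the second, shorter probe of that name. The miR-20b-5p probe had 1 mismatch to miR-20a-5p, at position 14 of the probe, and 2 to miR-106a-5p and miR-17-5p. The miR-106b-5p probe had 2 mismatches to miR-106a-5p and the miR-93-5p probe 3 to miR-20b-5p. The capitals of the miR-25-3p probe mark 5 mismatches to miR-92b-3p. They do not show the likeness to miR-92a-3p, which shared 18 of 21 compared bases with miR-25-3p. At 21 bases against 22, miR-92a-3p is too short to hold the whole probe in register. The brightest probe of miR-92a-3p had 2 mismatches to miR-25-3p. The probes shown for the 4 measured members each paired fully with no mature mouse miRNA other than their own among the 1679 names searched. How much of a signal comes from a sequence with 1 mismatch or more was not tested.

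Detection split the members clearly. For miR-106b-5p, miR-93-5p, miR-25-3p and miR-20b-5p, all kept spots of the brightest probe were well above background on all 8 arrays. miR-363-3p, by contrast, had intensities of 14.8, 19.7, 13.8 and 16.1 on the TAC arrays and 10.9, 8.42, 14.9 and 7.09 on the CTL arrays for its brighter probe, with 0 spots well above background. Both groups were therefore below detection, and no fold is given. The opposite arms of all 6 members, usually the scarcer arms, were below detection on every array too.

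**Figure D1:**
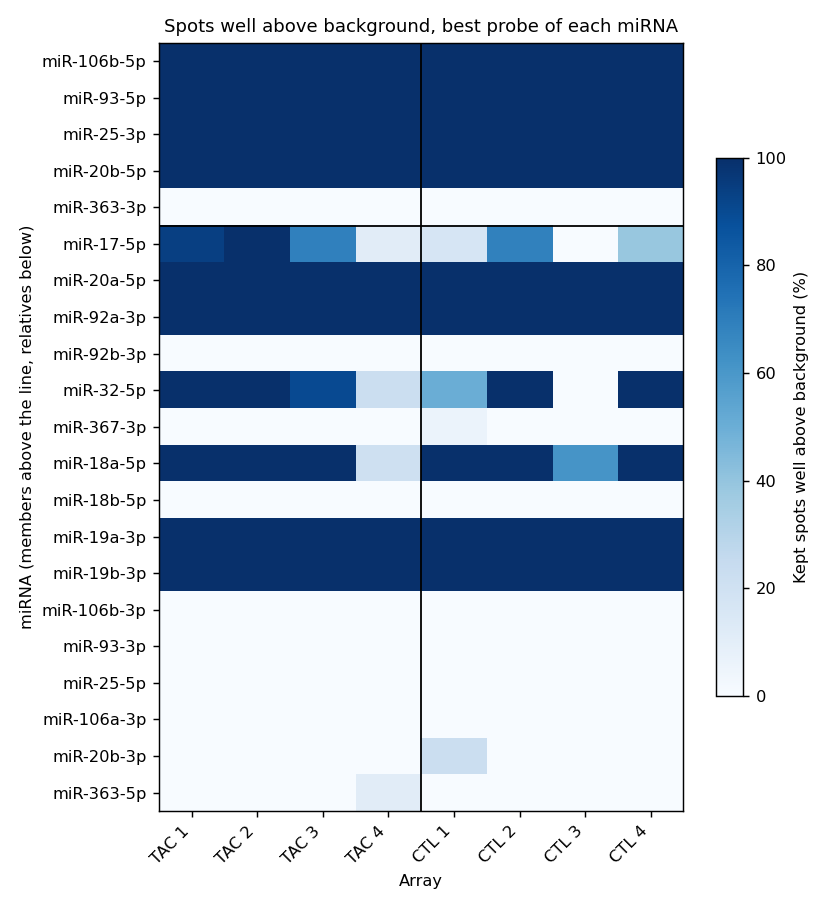
Share of kept spots well above background (colour, 0 to 100%) for the best probe of each member (above the line) and each related miRNA (below it) on the 4 TAC arrays (left) and the 4 CTL arrays (right). The 4 measured members are at 100% on every array and miR-363-3p is at 0 on every array, while miR-17-5p, miR-32-5p and miR-18a-5p differ between arrays.

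Among the measured members, miR-20b-5p was the one whose groups separated. Its mean was 1.15-fold higher in TAC kidneys, and this difference did not pass the test once adjusted over all miRNAs. The 3 members of the miR-106b cluster had differences close to 0. Values are log2 signals relative to an array's 75th percentile over probes that every array detected, so that 0 is the level of that percentile and negative values are dimmer. Of the 4 measured members, 0 passed an adjusted p of 0.05 in limma, against 3.09% of the 194 tested miRNAs (6, all higher in TAC). At an unadjusted p under 0.05 it was 1 of 4, against 15.5% of all tested. For whole kidney, a change in the share of a cell type and a change in the RNA per cell cannot be told apart.

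miR-20b-5p, the member of the miR-106a cluster that was measured, stood at -1.98, -1.97, -2.08 and -1.97 on the TAC arrays and at -2.18, -2.22, -2.14 and -2.24 on the CTL arrays. All TAC arrays were above all CTL arrays, with TAC 3 and CTL 3 nearest to each other. Non-overlap of this kind, in either direction, was found for 10.3% of tested miRNAs, for 8.25% with TAC above and for 2.06% with TAC below. The means were -1.999 ± 0.053 in TAC and -2.197 ± 0.044 in CTL (SD, n = 4 each). The difference was 0.20 (limma SE 0.06, 95% interval 0.06 to 0.33), with an adjusted p of 0.151, and miR-20b-5p was 12th of the 194 when ranked by p. Before scaling, its intensities were 565, 580, 391 and 565 on TAC arrays and 556, 411, 324 and 368 on CTL arrays, so that the groups overlapped in the unscaled signal. Its other probe, with 19 bases against 20, also separated the groups, with a difference of 0.21. The 2 probes read overlapping parts of 1 sequence and are not replicates.

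miR-106b-5p, the first member of the miR-106b cluster, stood at -1.44, -1.22, -1.38 and -1.46 on TAC arrays and -1.30, -1.44, -1.42 and -1.56 on CTL arrays. The groups overlapped almost wholly. The difference was 0.05 (SE 0.08, 95% interval -0.13 to 0.24, limma adjusted p = 0.772). This interval, before any adjustment, holds the differences that the data allow and is not a limit of detection. Its other probe gave 0.05 too.

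miR-93-5p, the miR-20b-5p counterpart in the miR-106b cluster, stood at -1.73, -1.60, -1.66 and -1.74 on TAC arrays and -1.45, -1.64, -1.62 and -1.82 on CTL arrays. The CTL arrays held both its highest and its lowest value, and the TAC arrays lay between them. The difference was -0.05 (SE 0.09, 95% interval -0.24 to 0.15, limma adjusted p = 0.798). Its second, dimmer probe gave -0.15.

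miR-25-3p stood at -1.87, -1.70, -1.85 and -1.91 on TAC arrays and -1.57, -1.85, -1.86 and -2.07 on CTL arrays. As for miR-93-5p, CTL 1 was the highest array and CTL 4 the lowest, and the SD was 0.09 in TAC and 0.20 in CTL. The difference was 0.0044 (SE 0.10, 95% interval -0.23 to 0.24, limma adjusted p = 0.988). Its dimmer probe gave -0.0092.

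**Figure D2:**
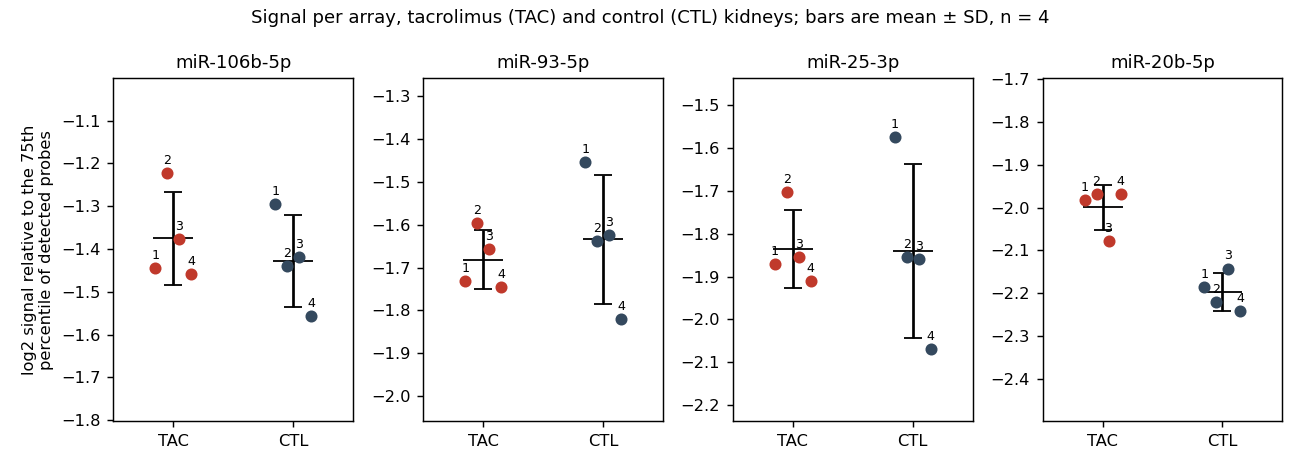
Log2 signal of the 4 measured members on each array (points, numbered by replicate), with TAC left of CTL in each panel and bars for mean ± SD (n = 4 each); every panel spans the same range on its vertical axis. The TAC and CTL points of miR-20b-5p do not overlap, while those of miR-106b-5p, miR-93-5p and miR-25-3p do.

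The design pairs members across the clusters by seed and order, which gave 3 pairs. Of these, 1 could be compared, miR-93-5p over miR-20b-5p, since the other 2 each had a member with no probe or no detection. A ratio within an array is unchanged where each array is divided by 1 factor, as here, but not under quantile normalization, which gave a difference of -0.17. Centred on its mean over the 8 arrays, the log2 ratio was -0.19, -0.07, -0.019 and -0.22 on TAC arrays and 0.29, 0.14, 0.08 and -0.019 on CTL arrays. TAC 3 and CTL 4 all but coincided, and the other TAC arrays were below the other CTL arrays. The ratio averaged -0.12 ± 0.09 in TAC and 0.12 ± 0.13 in CTL (SD, n = 4 each), a difference of -0.25 or 0.843-fold. An exact two-sided permutation test gave p = 0.0571, where 4 against 4 arrays allow no p below 0.0286. The call turned on CTL 4 and on the probes: without CTL 4 the difference was -0.29 with exact p = 0.0286, and with the mean of both probes of each miRNA it was -0.30 with exact p = 0.0286. Without both TAC 4 and CTL 1 the difference was -0.16.

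The other members of the miR-106b cluster showed the same sign against miR-20b-5p. The difference of the log2 ratio was -0.15 for miR-106b-5p and -0.19 for miR-25-3p, and the groups overlapped for both. All these ratios share the miR-20b-5p values, and these 2 were not tested.

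As a mean over its 3 members, each centred on its own mean, the miR-106b cluster stood at -0.05, 0.12, 0.0034 and -0.07 on TAC arrays and 0.19, -0.01, -0.0020 and -0.18 on CTL arrays, a difference of 0.0030. The miR-106a cluster was represented by miR-20b-5p alone, with a difference of 0.20. The contrast of the clusters was therefore -0.20, with -0.17, -0.0059, -0.02 and -0.20 on TAC arrays and 0.28, 0.11, 0.04 and -0.04 on CTL arrays. The lowest CTL array fell among the TAC values. The contrast was below 0 in all 19 alternatives that gave a value, from -0.24 to -0.10. It was -0.13 with quantile normalization, -0.10 without TAC 4 and CTL 1, and -0.10 with no filter, where miR-363-3p entered at the floor. With 1 of 3 members measured, the contrast says nothing of miR-106a-5p or miR-363-3p.

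The members of the miR-106b cluster varied together over the arrays. Likeness was measured as the root mean square difference of log2 signals, each centred on its own mean, over the 8 arrays, against the 193 other tested miRNAs. miR-93-5p and miR-25-3p were each other's nearest miRNA (0.05). miR-106b-5p was the 2nd nearest to miR-25-3p (0.07) and the 3rd to miR-93-5p (0.06), and from its own side miR-93-5p was 2nd and miR-25-3p 5th. The median distance to all other miRNAs was 0.16 for miR-106b-5p and miR-93-5p and 0.19 for miR-25-3p. The nearest miRNA to miR-106b-5p was miR-18a-5p (0.06), and the 2nd nearest to miR-93-5p was miR-103-3p (0.06). These are descriptions over 8 arrays that share a slide and a scaling.

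The profile of miR-20b-5p lay farther from those of its paralogs. miR-106b-5p, miR-93-5p and miR-25-3p were its 48th, 93rd and 99th nearest miRNAs. The nearest were miR-1839-5p (0.06), whose difference was 0.14, and miR-18a-5p (0.06), with miR-19b-3p and miR-20a-5p at ranks 3 and 4. miR-20a-5p differs from it by 1 base under the probe, and miR-19b-3p has copies in both the miR-106a and the miR-17 cluster.

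CTL 1, the array on which the mean of the miR-106b cluster was highest, was also the one on which erythrocyte miRNAs were highest. The match did not hold on all other arrays. On TAC 2 the cluster mean was 0.12 and the centred mean of the erythrocyte miRNAs -0.25. On CTL 2 and CTL 3 the cluster means were -0.01 and -0.0020 and the erythrocyte means 0.56 and 0.30. miR-451a, miR-144-3p and miR-486a-5p, abundant in red cells, were all highest on CTL 1, and among the CTL arrays all were lowest on CTL 4, which was also the order of miR-93-5p and miR-25-3p at these ends. Their summed signal ran from 1.88 to 2.50 on TAC arrays and from 2.09 to 5.81 on CTL arrays, in multiples of the 75th percentile. All 3 had a negative difference (-0.67, -0.62 and -0.67), and limma called 0 of 3 after adjustment and 3 of 3 at an unadjusted p under 0.05. miR-486a-5p was detected on 3 TAC and 2 CTL arrays. Their part in the values of the members was not tested.

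**Figure D3:**
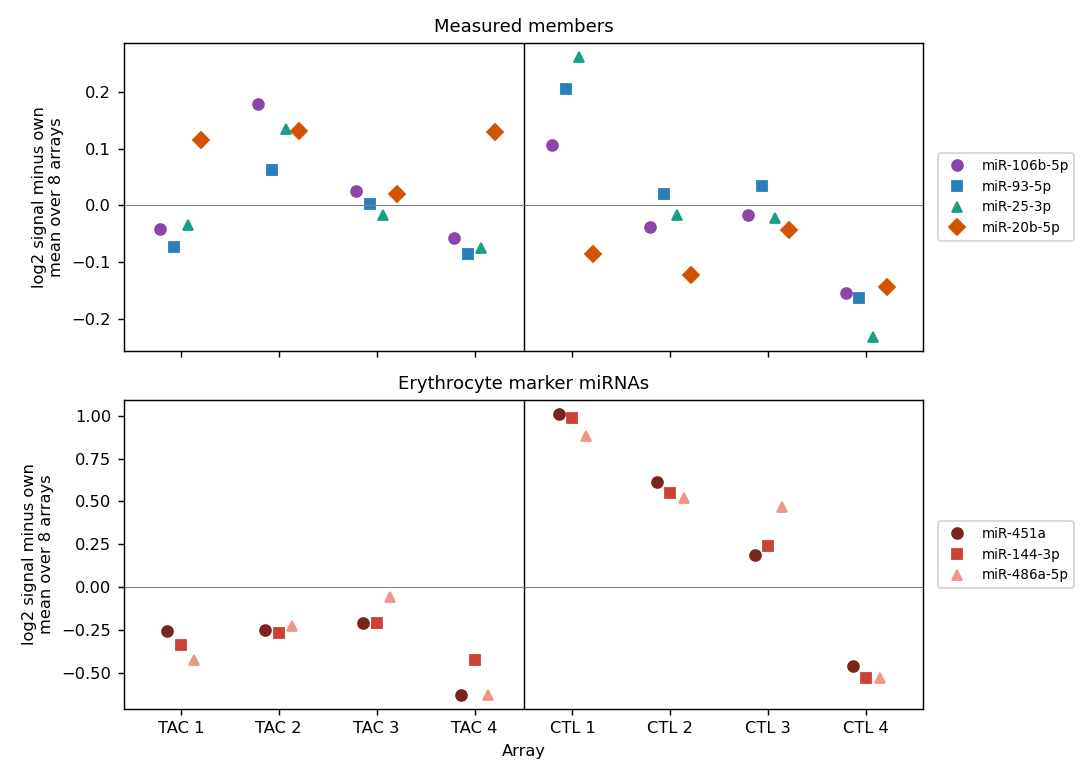
Log2 signal minus the miRNA's own mean over 8 arrays for the 4 measured members (top) and the 3 erythrocyte marker miRNAs (bottom), TAC arrays left and CTL arrays right. miR-106b-5p, miR-93-5p and miR-25-3p lie close together on most arrays, with miR-93-5p, miR-25-3p and the erythrocyte markers highest on CTL 1, while miR-20b-5p is above 0 on all TAC arrays and below 0 on all CTL arrays.

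Leukocyte and tubule miRNAs both lay on the same side as miR-20b-5p. miR-142a-3p, miR-223-3p and miR-150-5p had differences of 0.64, 0.61 and 0.25 (-0.041 for miR-150-5p with normexp background). Of these 3, limma called 0 after adjustment and 2 had an unadjusted p under 0.05, against 3.09% and 15.5% of all tested miRNAs. Their summed signal ran from 0.549 to 0.804 on TAC arrays and from 0.350 to 0.562 on CTL arrays. miR-150-5p was dim and was detected on 3 TAC and 3 CTL arrays, with CTL 3 at the floor. Of the markers of kidney, the tubule miRNAs miR-192-5p, miR-194-5p and miR-204-5p and the endothelial miR-126a-3p were detected on all 8 arrays. The tubule miRNAs had differences of 0.13, 0.14 and 0.34. Of these 3, limma called 0 after adjustment and 1 (miR-204-5p) had an unadjusted p under 0.05, against the same 3.09% and 15.5%. Their summed signal ran from 4.64 to 5.44 on TAC arrays and from 4.44 to 4.85 on CTL arrays. miR-126a-3p had a difference of -0.03. The miRNAs of liver (miR-122-5p), neurons (miR-124-3p) and 1 of muscle (miR-133a-3p) were detected on no array, and miR-1a-3p of muscle was detected on 2 TAC arrays and 0 CTL arrays. The part of leukocyte or tubule RNA in the miR-20b-5p difference was not tested.

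The relatives of the members came from a list of 16: miRNAs of the same seed families, mates of other families in the paralogous clusters, and the opposite arms. Of these, 7 were tested and 9 were detected on no array. Of the 7, limma called 0 after adjustment and 0 had an unadjusted p under 0.05, against 3.09% and 15.5% of all tested miRNAs. Their differences were above 0 for 6 of 7, with a median of 0.08, against a median of 0.04 and 59.3% above 0 over all tested miRNAs.

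In the seed family of miR-20b-5p, miR-20a-5p had the same sign. It stood at -1.12, -1.16, -1.27 and -1.16 on TAC arrays and -1.19, -1.29, -1.32 and -1.34 on CTL arrays, a difference of 0.11 (95% interval -0.04 to 0.26, limma adjusted p = 0.475). TAC 3 lay below CTL 1, and the other TAC arrays lay above all CTL arrays. Within arrays, the log2 ratio of miR-20b-5p over miR-20a-5p, centred, was 0.04 ± 0.03 in TAC and -0.04 ± 0.07 in CTL (SD, n = 4 each), with overlapping groups. The probe shared by miR-17-5p and miR-106a-5p was dim and was detected on 3 TAC arrays and 1 CTL array, and its difference was 0.03 over all 8 arrays.

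Of the mates of other seed families, miR-18a-5p separated the groups, at -4.78, -4.63, -4.76 and -4.75 on TAC arrays and -4.81, -4.83, -4.79 and -4.92 on CTL arrays. Its difference was 0.11 (limma adjusted p = 0.467), and it was detected on 3 TAC and 4 CTL arrays. Its other, dimmer probe gave 0.04, with overlapping groups and several arrays at the floor. miR-19a-3p and miR-19b-3p had differences of 0.08 and 0.11, with overlapping groups. In the seed family of miR-25-3p, miR-92a-3p had a difference of 0.08 and miR-32-5p one of -0.11, both with intervals that span 0. miR-92b-3p, miR-367-3p and miR-18b-5p, a mate in the miR-106a cluster, were not detected.

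**Figure D4:**
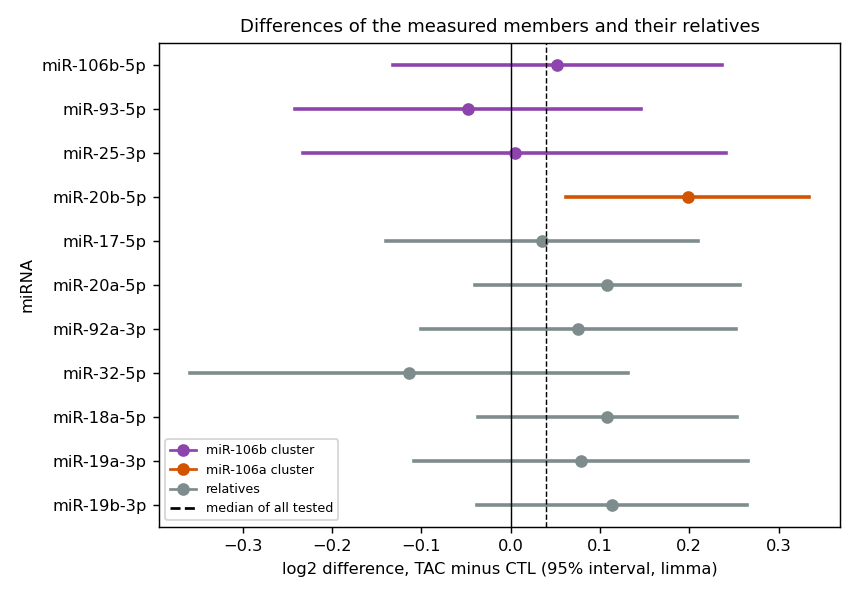
Log2 difference, TAC minus CTL, with the 95% interval of limma (n = 4 each) for the 4 measured members and their 7 tested relatives; the dashed line marks the median of all 194 tested miRNAs, 0.04. The interval of miR-20b-5p, 0.06 to 0.33, is the one that does not reach 0, before any adjustment for multiple tests.

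The arrays bear on these values in 3 ways. All 8 lay on 1 slide, with the TAC arrays in row 2 and the CTL arrays in row 1, and a row effect and a treatment effect cannot be told apart. A column of the slide held 1 TAC and 1 CTL array, and within the 4 columns the TAC minus CTL difference of miR-20b-5p was 0.20, 0.25, 0.06 and 0.27, above 0 in 4 of 4, while it was above 0 in 3 of 4 columns for miR-106b-5p and miR-25-3p and 2 of 4 for miR-93-5p. TAC 4 stood apart, with 147 miRNAs detected against 157 to 215 on the other arrays and a spread of negative control spots of SD 20.01, against 4.45 to 10.5 on the others. Without TAC 4, and with the scaling made anew, the miR-20b-5p difference was 0.08 (limma adjusted p = 0.629) and its groups overlapped, while the median of all tested miRNAs stood at -0.06, against 0.04 with all arrays. Relative to that median the difference was 0.14 without TAC 4 and 0.16 with it.

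**Figure D5:**
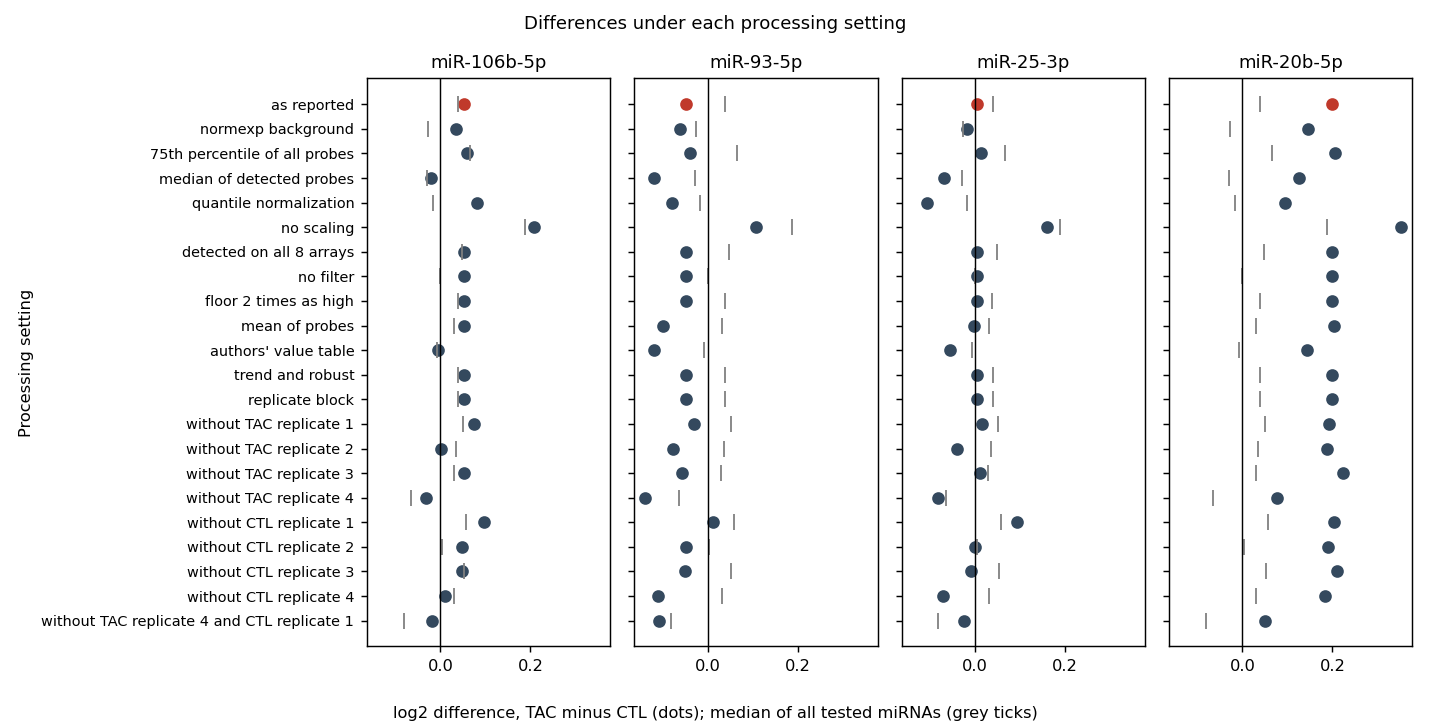
Log2 difference, TAC minus CTL, of each measured member (dots; red for the values reported) under every processing setting tried, with the median of all tested miRNAs under that setting (grey ticks). miR-20b-5p lies above 0 and above that median in every setting shown, by 0.11 to 0.20 over the median, while the other 3 members lie on both sides of 0. The filters, the higher floor, limma's options and the replicate block leave the dots unchanged by construction.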

How the data were processed

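Kidney RNA of 4 TAC and 4 CTL samples was measured on 1 array each, and groups were taken from the labels. The authors deposited the scanner output, which per the file headers came from Feature Extraction 10.7.3.1 and holds spot intensities on a linear scale with local background subtracted and no scaling between arrays. The authors' deposited value table matched the total gene signal of the same files in 100% of its cells (tolerance 1e-06), so it is a linear intensity with undetected miRNAs at 0.1. limma is named in the submitters' processing notes without a version or a stated use. The labelling kit named in the labels is one for mRNA.

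From the intensities, control and outlier spots were left out and spots of a probe averaged (20 spots per member probe, 16 to 20 of them kept). Detection of a probe on an array meant that a share of 0.5 or more of the spots kept was well above background. Each array was divided by its 75th percentile over the 252 probes detected on all 8 arrays (1431 to 2527 intensity units), a floor of -5.96 (log2) was set, and values were put on the log2 scale. The brightest of a miRNA's probes stood for it, and 194 miRNAs detected on at least 4 arrays were tested with limma 3.58.1 in R 4.3.3 (lmFit and eBayes, 9.17 degrees of freedom, two-sided, Benjamini-Hochberg over the 194). Ratios were compared with exact permutation tests. The number of arrays limits the precision. On simulated arrays with 20 of 194 miRNAs changed, 76.8% of changes of 0.5 and 94.6% of changes of 1 (log2) were recovered. Both sizes exceed every member difference under this processing, the largest being 0.20. Recovery at such small sizes was not simulated. The text names all members, the listed relatives and markers, and the 2 nearest miRNAs of each measured member. Members and lists were chosen with earlier results of these data known.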

Additional observations from a re-analysis of the deposited data

Results flagged for a closer look

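The value of miR-20b-5p on TAC 3, -2.08, stood apart from the other 3 TAC arrays, being 0.10 below their mean on the log2 scale. It was still above every CTL array. Without TAC 3 the miR-20b-5p difference was 0.22 (limma adjusted p = 0.120). Among the erythrocyte markers, miR-451a on TAC 4, at 0.84, lay 0.39 below the mean of the other 3 TAC arrays. In all, 2 of 44 groups of 4 arrays held such an array, and chance alone gives about 1 in 20, or 2.2 of 44.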

How the results depend on the processing

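The replicate numbers were not treated as pairs: arrays of one number deviated together with correlations of 0.109, 0.140, 0.112 and 0.0946, and 1 of 4 numbers had its best match in itself. With a replicate block, limma called 0 miRNAs in place of 6, the miR-20b-5p adjusted p was 0.252, and the exact p of the miR-93-5p over miR-20b-5p ratio was 0.125, the smallest 4 pairs allow. In 21 alternatives, limma called 0 of the 4 measured members in each. The miR-20b-5p difference was above 0 in 21 of 21, from 0.05 to 0.35, with adjusted p from 0.0718 to 0.995, and its groups did not overlap in 16. They overlapped with the 75th percentile of all probes, quantile normalization or no scaling, without TAC 4, and without both TAC 4 and CTL 1, a setting chosen after seeing the data since these arrays had the widest negative controls. Several of the settings could not change this separation. The filters, the higher floor, limma's options and the replicate block left the miR-20b-5p values as they were. Leaving out a single array could make separated groups overlap only where the scaling moved too. The counts therefore overstate how far the result was put to the test. No scaling moved the median of all tested miRNAs to 0.19, and miR-20b-5p was then 0.17 above it.

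The count of called miRNAs was 1 with normexp background and 0 with no filter, with no scaling, with the all-probe percentile, with the mean of probes, with a floor 2 times as high, with limma's trend and robust options, or with the authors' value table, and 0 to 7 when single arrays were left out. The count without overlap was 12 with normexp, 0 with the percentile of all probes, 1 without scaling, 21 to 30 without single arrays, and 48 without TAC 4 and CTL 1. The ratio of miR-93-5p over miR-20b-5p passed at exact p = 0.0286 with the mean of probes (-0.30), with the authors' value table (-0.26) and without CTL 4 (-0.29), and ranged from -0.29 to -0.19 without single arrays. The miR-106b cluster mean was 0.16 without scaling and from -0.08 to 0.07 without single arrays. The cause was not tested for any of these or for the changes of sign that follow.

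Differences near 0 changed sign. For miR-106b-5p it was -0.020 with the median of detected probes, -0.0047 with the value table, -0.018 without TAC 4 and CTL 1, and -0.032 to 0.10 without single arrays. For miR-93-5p it was 0.11 without scaling and -0.14 to 0.013 without single arrays. For miR-25-3p it was -0.019 with normexp, -0.068 with the median, -0.11 with quantile normalization, -0.0024 with the mean of probes, -0.055 with the value table, -0.024 without TAC 4 and CTL 1, and -0.082 to 0.093 without single arrays. For miR-17-5p it was -0.029 with normexp, -0.0091 with the percentile of all probes, -0.0024 with the median, -0.057 with quantile normalization, -0.089 with the value table, and -0.065 to 0.079 without single arrays. miR-32-5p turned to 0.026 with the mean of probes and 0.19 with the value table, miR-18a-5p to -0.058 and miR-150-5p to -0.041 with normexp, and miR-126a-3p to 0.12 without scaling. Without single arrays the lowest and highest values were -0.0092 and 0.14 for miR-20a-5p, -0.027 and 0.11 for miR-92a-3p, -0.070 and 0.13 for miR-19a-3p, -0.011 and 0.16 for miR-19b-3p, -0.020 and 0.17 for miR-192-5p, and -0.16 and 0.0033 for miR-126a-3p. Without TAC 4 and CTL 1 the values were -0.082 for miR-17-5p, -0.0085 for miR-20a-5p, -0.12 for miR-92a-3p, -0.017 for miR-18a-5p, -0.11 for miR-19a-3p, -0.032 for miR-19b-3p, -0.061 for miR-192-5p and -0.048 for miR-194-5p. Without CTL 4, limma called miR-144-3p and miR-486a-5p (-0.90 and -0.98), and without TAC 3 it called miR-223-3p (0.74). Signal over background limits miR-17-5p, miR-32-5p, miR-150-5p and miR-363-3p, which were dim or undetected.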
